A study of Mus musculus with 4 samples.

Results

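The genes described here are 10 immediate early genes, of 31053 genes in the count matrix: the Fos family (Fos, Fosb, Fosl1 and Fosl2), the Jun family (Jun, Junb and Jund), Atf3, Egr1 and Ier2. They were taken by symbol, and all 10 were found. Their transcripts were counted in single cells of colon polyps from female C57BL/6 mice given the carcinogen azoxymethane (AOM, 12.5 mg/kg) and then dextran sulphate sodium (DSS), a colitis agent, at 2.5% in the drinking water and 2% in the last cycle. The labels name 4 samples: CD45+ immune cells from EgfrΔMYL mice, in which Egfr is deleted in the myeloid lineage, CD45- non-immune cells from EgfrΔMYL mice, and the same sorts from Egfr fl/fl mice, with 1 sample in each of the 4 groups. All 4 share the AOM/DSS treatment, with DSS given for 5 days per cycle. The driver of the deletion and the number of animals per sample are not given in the sources used here. Tumours were taken 30 days after the last DSS and digested for 1 h at 37 °C with 1.5 mg/mL collagenase before sorting.

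The matrix holds 129529250 UMIs (unique molecular identifiers, each marking 1 captured transcript) in 18026 barcodes, which end in 1 of 4 suffixes. No source used here pairs a suffix with a sample, and the labelled protocol mentions both sorts going into 1 capture well, so whether a suffix holds 1 sort or both is not clear. Barcodes with 1 suffix are therefore called a library, no library is given a genotype or a sort, and nothing is compared between the labelled groups. Of the barcodes, 14198 passed the filters, with 594, 1706, 4516 and 7382 of them in libraries 1 to 4, and 48 barcodes carried a sequence also found in another library. The median depth of kept cells was 4507, 3390.5, 4932.5 and 5177 UMIs in libraries 1 to 4. Libraries 1 and 2 stood apart: the filters removed 59.0 and 56.3% of their barcodes against 8.75 and 4.45% in libraries 3 and 4, and haemoglobin took 8.90 and 0.981% of their kept UMIs against 0.0207% or less. Marker genes placed 11101 cells in 15 types, and the 13 types with at least 50 cells, each written with "-like", were used: 2591 neutrophil, 1744 monocyte/macrophage, 110 type 1 conventional dendritic, 76 type 2 conventional dendritic, 270 migratory dendritic, 100 plasmacytoid dendritic, 63 mast, 56 basophil, 2503 T, 64 NK, 1444 B, 445 plasma and 1578 epithelial cells. Epithelial-like cells came almost wholly from libraries 1 and 2 (363 and 1146 cells), and the immune types other than neutrophil-like and basophil-like cells from libraries 3 and 4, so for most types cell type and library cannot be told apart. As a measure of free RNA, S100a9, a neutrophil calprotectin gene, stood at 82780 CPM (UMIs per 1000000 of the type's UMIs) in neutrophil-like cells and at 35.5 to 367 CPM in the other types, and member levels of a few CPM are not read as expression.

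AP-1 is a transcription factor built as a pair of proteins with a basic leucine zipper. Jun proteins can pair with each other or with a Fos protein, while Fos proteins need a Jun partner. Fos, Fosb, Jun and Egr1 are switched on within minutes by growth factors, stress or calcium through MAP kinases, SRF and CREB, and their transcripts are short-lived. Jund is more steadily expressed, Junb often antagonises Jun, and Atf3 is a stress-induced bZIP factor that frequently represses inflammatory genes. Warm enzymatic digestion of tissue is known to switch on the same genes. No undigested sample was used here, so how much of any level arose during digestion was not tested.

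Promoter stretches are shown for the 4 genes on which the differences between cell types turn: Junb and Jun, which led the AP-1 transcripts of most types, and Fos and Atf3, the members called higher in monocyte/macrophage-like cells. RefSeq sequences (GRCm38.p6) were held for 7 of the 10 genes, not for Fosl1, Egr1 or Ier2. Each line is 250 bases, 5′ to 3′, ending at the base before the annotated start. Capitals mark TGACG, the core of a CREB/ATF site, TGACATCA, an AP-1-like site, and TATAAA, the TATA box, on either strand.
Fos, chr12:85473640-85473889, plus strand: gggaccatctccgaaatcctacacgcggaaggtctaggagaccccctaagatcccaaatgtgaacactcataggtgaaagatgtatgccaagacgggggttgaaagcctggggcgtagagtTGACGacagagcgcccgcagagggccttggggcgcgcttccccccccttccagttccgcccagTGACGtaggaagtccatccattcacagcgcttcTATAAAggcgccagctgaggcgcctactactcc
Jun, chr4:95052223-95052472, minus strand: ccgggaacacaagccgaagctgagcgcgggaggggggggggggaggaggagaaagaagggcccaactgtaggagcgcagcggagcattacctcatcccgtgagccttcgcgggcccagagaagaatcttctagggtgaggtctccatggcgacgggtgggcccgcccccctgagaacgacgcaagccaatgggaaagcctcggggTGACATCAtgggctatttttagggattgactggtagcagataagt
Junb, chr8:84978749-84978998, minus strand: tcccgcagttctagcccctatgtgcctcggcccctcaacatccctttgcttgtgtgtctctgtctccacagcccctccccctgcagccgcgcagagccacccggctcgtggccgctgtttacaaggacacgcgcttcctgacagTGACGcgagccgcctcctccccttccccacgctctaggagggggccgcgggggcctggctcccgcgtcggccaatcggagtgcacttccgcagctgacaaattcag
Atf3, chr1:191183334-191183583, minus strand: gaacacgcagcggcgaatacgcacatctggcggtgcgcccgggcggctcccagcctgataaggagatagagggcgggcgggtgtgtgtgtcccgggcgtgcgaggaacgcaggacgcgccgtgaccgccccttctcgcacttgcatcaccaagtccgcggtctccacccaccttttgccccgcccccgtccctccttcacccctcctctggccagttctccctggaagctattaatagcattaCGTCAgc

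TGACG was found in 4 of the 7 promoters, those of Fos, Fosb, Junb and Atf3, against 17.8% of 32851 mouse promoters of the same length. In Fos it began 129 and 66 bases before the start, and in Junb 106, Fosb 60 and Atf3 7 bases before it. TGACATCA was found only in Jun, 45 bases before the start, and in 2.93% of all promoters. TATAAA was found only in Fos, 33 bases before the start, and in 12.4% of all promoters. The full palindrome TGACGTCA, the AP-1 consensus TGANTCA and the CArG box of SRF were found in none of the 7 windows. Of all promoters, 1.55, 6.75 and 1.47% had them. Sequence farther upstream than 250 bases was not searched, so a site there, in Fos or another member, would not be seen. TGACGTCA contains TGACG. A match describes the letters of the window and is not a measured binding site. The Atf3 window lies inside the longer gene model of the annotation (chr1:191170296-191218039), upstream of an internal start. The Fosl2 window also lies inside its gene model, and the Jund window ends before its gene model without reaching it, so their lack of matches describes those stretches.

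The make-up of AP-1 transcripts differed by cell type. Over the 8 Fos, Jun and Atf3 genes, Junb held the largest share of UMIs in 7 types, Jun in 3, Jund in 3 and Fos in 0. UMIs were counted at the 3′ end and are not scaled by transcript length, so shares describe captured molecules. Junb led in migratory dendritic-like cells with 52.6% (exact binomial 95% interval 51.0 to 54.2%), in T-like cells with 47.4% and in neutrophil-like cells with 46.4%. It also led in NK-like cells with 42.8%, monocyte/macrophage-like cells with 32.4%, and type 1 and type 2 conventional dendritic-like cells with 31.1 and 29.7%. Jun led in plasmacytoid dendritic-like cells with 39.2%, mast-like cells with 33.6% and epithelial-like cells with 30.7%. The lead in mast-like cells came from library 4, where Jun had 125 UMIs in 38 cells, while in the 23 cells of library 3 Jun had 29 UMIs, below Junb with 35, Fos with 32 and Jund with 31. Jund led in B-like cells with 43.7%, plasma-like cells with 43.6% and basophil-like cells with 31.9%.

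Jun family transcripts outnumbered Fos family transcripts in all 13 types. The Fos family had its largest share in monocyte/macrophage-like cells, 33.2%, beside 53.8% for the Jun family. It had its smallest in migratory dendritic-like cells, 11.6% beside 80.6%, and in T-like cells, 13.4% beside 85.7%. Summed over the 8 genes, the level was 13434 CPM in basophil-like, 6095 in neutrophil-like, 4687 in monocyte/macrophage-like, 3812 in type 2 conventional dendritic-like and 3808 in epithelial-like cells. It was 2721 CPM in NK-like and 2425 in T-like cells, and lowest in plasma-like cells at 1432 and B-like cells at 1317 CPM.

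**Figure D1:**
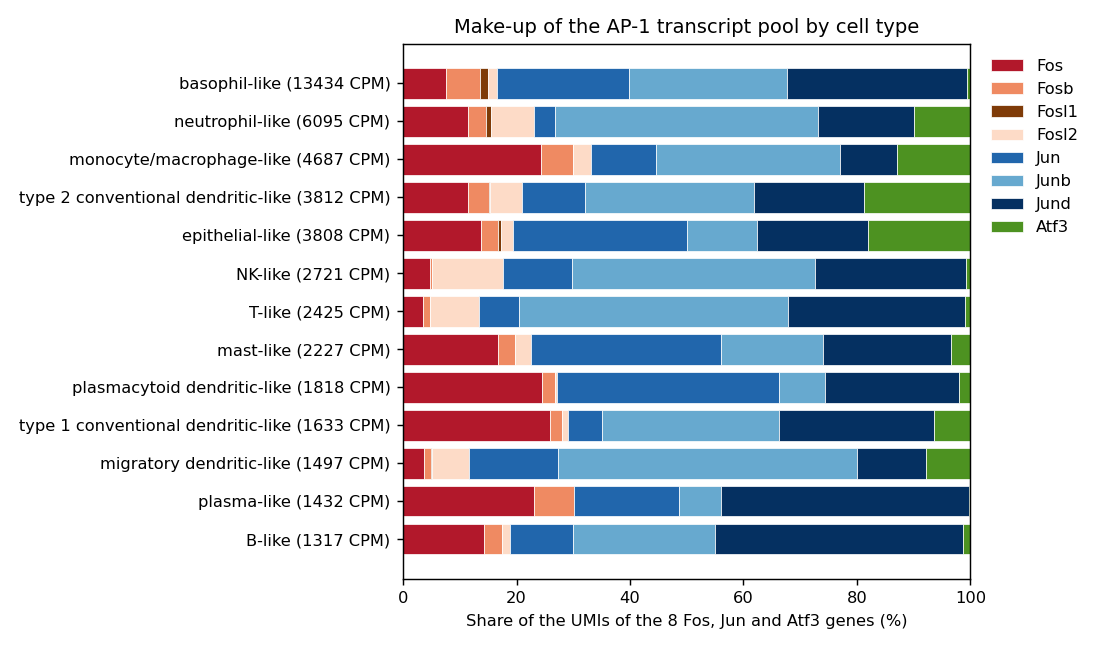
Stacked bars give the share (%) of each of the 8 Fos, Jun and Atf3 genes in their summed UMIs for each cell type, with the summed level in CPM beside the type's name. Junb (light blue) is the widest block in 7 types, Jund (dark blue) in basophil-like, plasma-like and B-like cells, and Jun (mid blue) in epithelial-like, mast-like and plasmacytoid dendritic-like cells.

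The leading gene was the same in every library that held at least 50 cells of the type for neutrophil-like, monocyte/macrophage-like, migratory dendritic-like, T-like, B-like and plasma-like cells. In neutrophil-like cells Junb held 45.8, 47.8, 50.5 and 45.1% in libraries 1 to 4. In B-like cells Jund held 46.5 and 36.0% in libraries 3 and 4. Type 1 conventional dendritic-like cells had 1 such library, library 4, where Jund led with 32.1% over Junb with 28.3%, unlike over all libraries. In epithelial-like cells Jun led in libraries 1 and 2 with 29.1 and 31.8%, and Junb in library 4 with 25.9%. The 50 epithelial-like cells of library 4 also carried 3907 CPM of Il1b and 513 CPM of Lyz2, both myeloid transcripts, against 5.36 and 9.28 CPM in library 1 and 20.1 and 4.20 CPM in library 2. The part of myeloid RNA in their Junb share was not tested.

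Fos (chr12:85473890-85477273 of mm10, plus strand), the founding Fos family member, was highest in monocyte/macrophage-like cells. Monocyte/macrophage-like cells had 1137 CPM (exact Poisson 95% interval 1123 to 1150), with 1151 and 1132 CPM in libraries 3 and 4. Neutrophil-like cells had 609, 605, 520 and 775 CPM in libraries 1 to 4, and epithelial-like cells 590, 499 and 287 CPM in libraries 1, 2 and 4. The ranges of these last types overlapped, and both lay below that of monocyte/macrophage-like cells. Basophil-like cells were second at 1009 CPM (884 to 1145), and plasmacytoid, type 2 and type 1 conventional dendritic-like cells had 446, 434 and 423 CPM. T-like cells had 77.8 and 95.8 CPM in libraries 3 and 4, and migratory dendritic-like cells 69.4 and 43.2 CPM, the lowest of the 13 types. The highest level was 20.9 times the lowest. Sorting the 13 types by level gives 12 neighbouring pairs, and 8 of these overlapped, taking as range the libraries of at least 50 cells or, with fewer than 2 such libraries, the counting interval.

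Fosb (chr7:19302696-19310051, minus strand), which shares the transactivating tail of Fos, followed Fos at a lower level. It had 266 CPM in monocyte/macrophage-like cells (332 and 238 in libraries 3 and 4), 192 CPM in neutrophil-like cells and 120 CPM in epithelial-like cells, against 27.5 CPM in T-like and 7.93 CPM in NK-like cells. Basophil-like cells had more, 817 CPM (706 to 941). Of its 12 neighbouring pairs, 10 overlapped.

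The Fos-related antigens Fosl1 and Fosl2, which lack that tail, had other patterns. Fosl2 (chr5:32135801-32157842, plus strand) was highest in neutrophil-like cells, with 396, 473, 446 and 459 CPM in libraries 1 to 4. NK-like cells had 341 CPM (285 to 405), and T-like cells 187 and 240 CPM in libraries 3 and 4, which made Fosl2 the most abundant Fos family transcript of both lymphocyte types. Plasmacytoid dendritic-like cells had 5.26 CPM and plasma-like cells 1.43 CPM.
Fosl1 (chr19:5447547-5455946, plus strand) was the scarcest member in every type except basophil-like cells, where Atf3 was lower at 72.3 CPM. Fosl1 had 183 CPM (132 to 246) in basophil-like cells, 56.6, 37.8, 89.2 and 44.8 CPM in neutrophil-like cells of libraries 1 to 4, and 17.7 CPM in epithelial-like cells. It stayed at 3.80 CPM or less in the other 10 types. In type 1 conventional dendritic-like, plasmacytoid dendritic-like and mast-like cells it was not detected, which allows up to 1.29, 3.16 and 14.6 CPM at 3 counts.

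**Figure D2:**
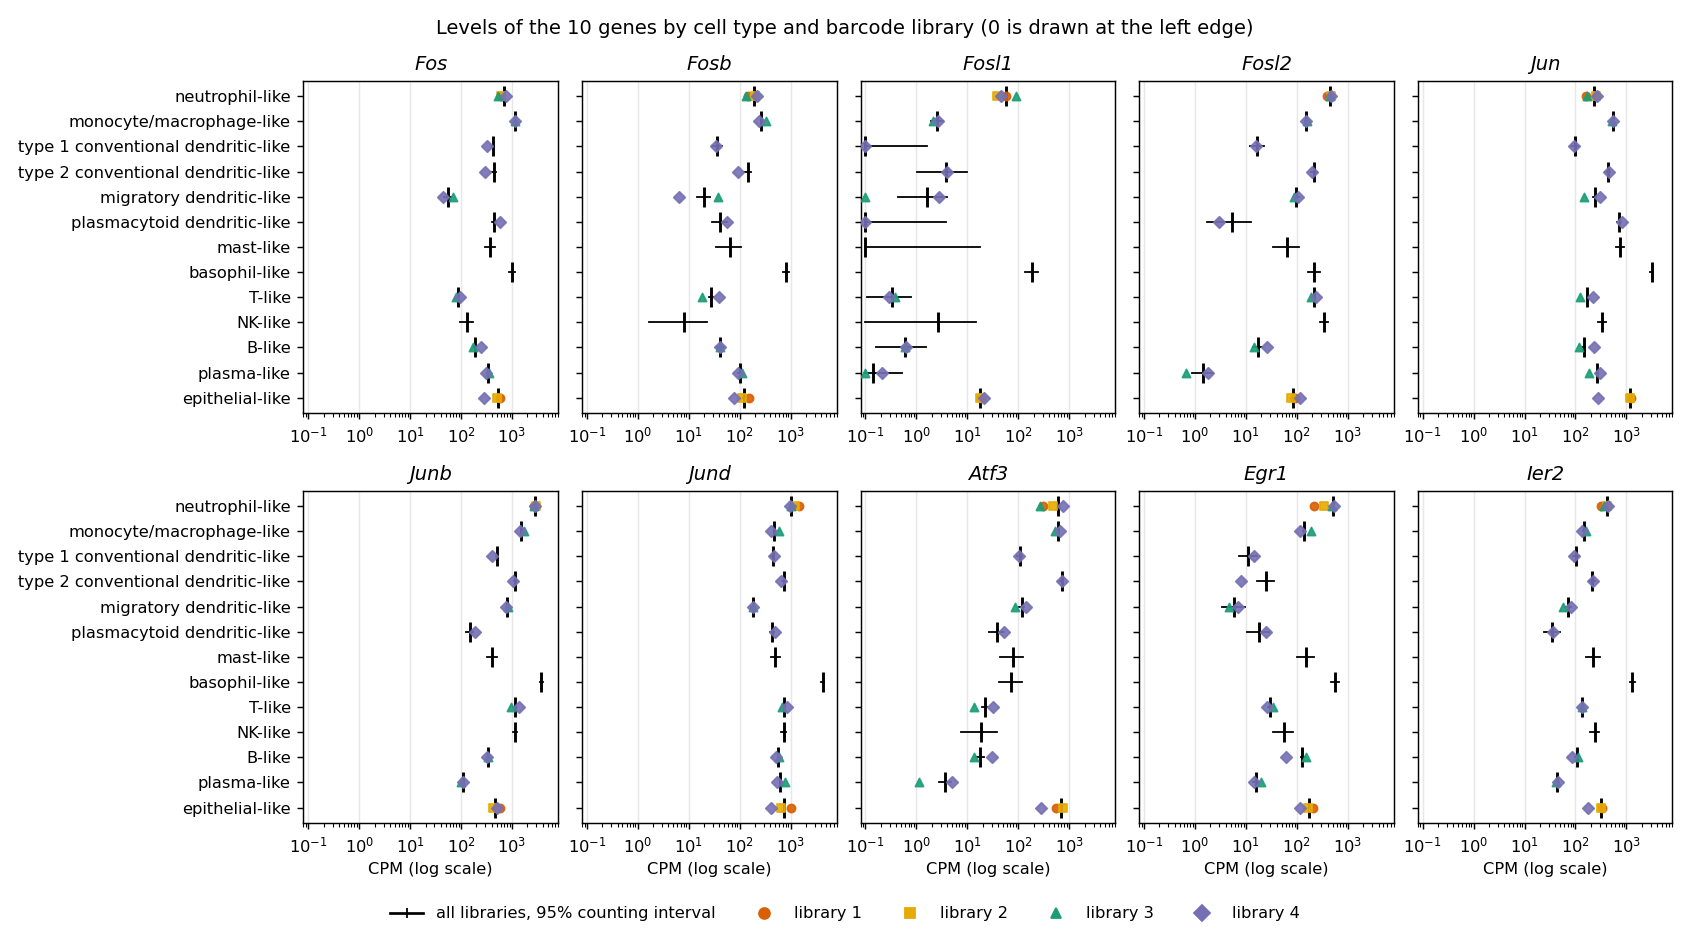
Each panel gives 1 gene's level (CPM, log scale) in the 13 cell types: the black tick and line are all libraries with the 95% counting interval, and coloured points are single libraries with at least 50 cells of the type. Junb points of neutrophil-like cells lie between 2657 and 3003 CPM, while Atf3 points of the same cells spread between 262 and 761 CPM.

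Junb (chr8:84974484-84978718, minus strand) was the most abundant member in neutrophil-like cells. It had 2657, 3003, 2699 and 2874 CPM there in libraries 1 to 4, against 1711 and 1437 CPM in monocyte/macrophage-like cells and 951 and 1369 CPM in T-like cells of libraries 3 and 4. These ranges did not overlap. Epithelial-like cells had 574, 425 and 508 CPM in libraries 1, 2 and 4, B-like cells 331 and 319 CPM, and plasma-like cells 99.0 and 109 CPM. Junb had the most neighbouring pairs apart, 7 of 12.

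Jun (chr4:95049034-95052222, minus strand, 1 exon), the classical partner of Fos, was high in basophil-like and epithelial-like cells and low in neutrophil-like cells. Epithelial-like cells had 1228 and 1179 CPM in libraries 1 and 2, but 272 CPM in library 4. Neutrophil-like cells had 163 and 255 CPM in the same libraries 1 and 2, and 166 and 263 CPM in libraries 3 and 4. Mast-like cells had 749 CPM over all libraries, but 319 CPM in library 3 and 1149 CPM in library 4. Over all libraries, plasmacytoid dendritic-like cells had 713 CPM (660 to 768) and monocyte/macrophage-like cells 536 CPM. Type 1 conventional dendritic-like cells were lowest with 97.8 CPM (85.5 to 111). Jun was thus high and Junb low in epithelial-like cells, and the reverse held in neutrophil-like cells, within libraries 1 and 2 and with all libraries summed. It did not hold in library 4, where Junb had 25.9% and Jun 13.8% of the AP-1 UMIs of epithelial-like cells.

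Jund (chr8:70698949-70700616, plus strand, 1 exon) was the most even of the Jun genes outside basophil-like cells. It ranged from 183 CPM in migratory dendritic-like to 1022 CPM in neutrophil-like cells, and 9 of its 12 neighbouring pairs overlapped. This range depends on the totals. With immunoglobulin transcripts left out of them, plasma-like cells had 1884 CPM of Jund, above neutrophil-like cells at 1025 CPM. Outside basophil-like cells Jund then spanned 183 to 1884 CPM, and Jun 97.9 to 1168 CPM. Neutrophil-like cells had 1461, 1229, 1037 and 986 CPM in libraries 1 to 4. T-like, epithelial-like, type 2 conventional dendritic-like and NK-like cells lay close together at 756, 745, 741 and 727 CPM.

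Atf3 (chr1:191170296-191218039, minus strand) divided the 13 types into a high and a low group. It had 714 CPM (664 to 767) in type 2 conventional dendritic-like, 687 in epithelial-like, 611 in neutrophil-like and 608 in monocyte/macrophage-like cells, and the ranges of neighbours in this order overlapped. The other 9 types had 117 CPM or less, down to 3.71 CPM in plasma-like cells. Within neutrophil-like cells it varied most by library, with 310, 488, 262 and 761 CPM in libraries 1 to 4. Type 1 conventional dendritic-like cells, at 106 CPM, had far less than their type 2 counterparts.

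Egr1 (chr18:34859823-34864984, plus strand) encodes a zinc finger factor induced along the same route as Fos. It was high in neutrophil-like cells, with 220, 347, 489 and 532 CPM in libraries 1 to 4, and in basophil-like cells with 566 CPM (474 to 671). Epithelial-like cells had 175 CPM, monocyte/macrophage-like 138 and B-like 127 CPM. In B-like cells Egr1 was 149 and 62.3 CPM in libraries 3 and 4. All 4 dendritic types had less, between 5.92 and 24.7 CPM. Ier2 (chr8:84661331-84662852, minus strand, 1 exon), a nuclear protein of the same early response, had 1311 CPM in basophil-like, 419 in neutrophil-like and 315 in epithelial-like cells, and between 34.7 and 241 CPM in the rest.

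Each type was next set against the unweighted mean of the other 12 types, after adding 1 CPM. A gene was called at least 2-fold higher with a log2 fold of 1 and 10 UMIs or more in the type. It was called lower with a log2 fold of -1 and 10 UMIs or more in the other types summed. The shares of all genes set beside the counts therefore cover different genes. In basophil-like cells, for example, the higher share is of 2770 genes and the lower share of 16899. There is no test, because the matrix has no labelled replicates, and the standard errors (SE) cover counting only.
In neutrophil-like cells 5 of the 10 members were called higher, where 10.9% of 9781 genes were, and 1 lower, where 51.1% were. Egr1 had 505 CPM against a mean of 110 CPM (log2 fold 2.19, SE 0.07), Fosl2 454 against 118 (1.93), Fosl1 56.3 against 17.7 (1.62), Junb 2827 against 954 (1.57) and Atf3 611 against 207 (1.56). Jun was the lower one, 235 against 663 CPM (-1.50). The members' median was 1.16, beside -1.04 for all 16819 genes tested. Atf3 depended on library 4, without which its log2 fold was 0.54, and had 0.87 against all other cells summed. Jun was no longer called with the basophil-like cells, which hold the highest Jun, left out of the mean (-0.90), nor without library 1 (-0.89), 2 (-0.90) or 3 (-0.83), each of which takes the basophil-like cells under 50 and so out of the mean.

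In monocyte/macrophage-like cells 2 members were called higher, where 9.42% of genes were, and 1 lower, where 15.1% were. Atf3 had 608 against 207 CPM (log2 fold 1.55, SE 0.03) and Fos 1137 against 391 CPM (1.54), while Fosb, at 266 against 134 CPM (0.98), stayed just under the threshold. Fosl1 was lower at 2.53 against 22.2 CPM. The median was 0.03, beside -0.16 for all genes.

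Epithelial-like cells had 1 member called higher, Atf3 with 687 against 200 CPM (1.77, SE 0.03), where 35.1% of genes were higher, and 1 lower, Junb with 469 against 1151 CPM (-1.29), where 15.9% were lower. Without basophil-like cells in the mean Junb had -0.96, and without library 2 it had -0.69. Jun, at 1168 against 585 CPM, lay just under the threshold with a log2 fold of 0.995. It passed in 10 of 18 alternative settings, and the count moved between 0 and 5. It was 3 without library 1, 4 without library 2 and 5 without library 3, and 0 without libraries 1 and 2 together, where Atf3 had a log2 fold of 0.40. All of these settings also take the basophil-like cells under 50 and so out of the mean.

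In lymphocytes most members lay below the mean of the other types. In T-like cells 0 members were called higher, where 9.73% of genes were, and 6 lower, where 17% were: Atf3 had 21.9 against 256 CPM (-3.49), Fos 85.8 against 479 CPM (-2.47), and Fosb, Fosl1, Jun and Egr1 were also lower. Junb (0.07) and Jund (-0.24) lay near the mean, and Fosl2 had 212 against 139 CPM (0.61). Without library 3, Fosl2 was called higher. In B-like cells 0 were higher, where 9.81% were, and 8 lower, where 21.2% were, with Egr1 (-0.15) and Jund (-0.66) the exceptions. The members' median was -2.12 in T-like and -1.84 in B-like cells, beside -0.03 and -0.17 for all genes. Fosl1 had fewer than 10 UMIs in both types. In B-like cells Ier2 lost its call without basophil-like cells (-0.73) and without library 1 (-0.73), 2 (-0.73) or 3 (-0.95), and Fos without library 3 (-0.88). NK-like cells had 1 member higher, Fosl2 (1.41, SE 0.13), where 18.1% were, and 5 lower, where 23.3% were.

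The dendritic types split. Type 1 conventional, migratory and plasmacytoid dendritic-like cells had 0 members higher, where 8.58, 13.5 and 19.7% of genes were, and 9, 8 and 8 lower, where 21.3, 26.2 and 20.7% were. The members not called lower were Fos (-0.09) in type 1 conventional, Fosl2 (-0.60) and Junb (-0.51) in migratory, and Fos (-0.01) and Jun (0.19) in plasmacytoid dendritic-like cells. Type 2 conventional dendritic-like cells had 1 higher, Atf3 (1.84), where 6.93% were, and 2 lower, Fosl1 and Egr1, where 23.4% were. Mast-like cells had 0 higher, where 15.7% were, and 5 lower, Fosb, Fosl1, Fosl2, Junb and Atf3, where 34.7% were.

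Basophil-like cells had the highest levels of 7 of the 10 genes. In these 56 cells 8 members were called higher, where 26.8% of genes were, and 1 lower, where 38.6% were. Fosb, at 817 against 88.1 CPM, had a log2 fold of 3.20 (SE 0.11), Jun 2.88, Jund 2.83 and Junb 2.09, while Atf3, at 72.3 against 252 CPM, was lower (-1.78). Of the cells, 19, 27, 7 and 3 came from libraries 1 to 4. Jund had 4900, 3442, 4581 and 2635 CPM in these, and Junb 3778, 4209, 2848 and 3632 CPM, above every library of neutrophil-like cells in 3 of 4 for Junb and in all 4 for Jund. Jun had 3312, 4122 and 1956 CPM in libraries 1 to 3 and was not detected in the 3 cells of library 4. The cells also carried Il4, Il6 and Il13 among their 10 leading genes. The members' median was 2.63, beside -0.62 for all genes.

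Plasma-like cells had 0 members higher, where 4.41% of genes were, and 7 lower, where 56.2% were. Immunoglobulin transcripts made up 66.8% of their UMIs. Without them in the totals (a setting added after the values were seen) the 8 genes summed to 4318 CPM, between the 4693 CPM of monocyte/macrophage-like and the 3816 CPM of type 2 conventional dendritic-like cells on the same scale. Jund then had 1884, Fos 999, Jun 797 and Junb 324 CPM, and Atf3 still 11.2 and Fosl2 4.30 CPM.

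Within types, members varied with state, defined by marker genes that were not members. Activated neutrophil-like cells (2317, with at least 2 of Acod1, Hcar2, Ptgs2, Cxcl3, Ccl3 and Ccl4, and more of these than of the other list) and granule-gene-rich ones (83, with genes such as Ngp, Ltf and Camp) both kept Junb in the lead. Atf3 had 664 CPM (647 to 682) in activated and 70.1 CPM (48.2 to 98.4) in granule-gene-rich cells. Egr1 had 544 against 146 CPM, Jun 252 against 82.8 CPM and Junb 2915 against 1752 CPM. Fosl1 went the other way, with 46.2 CPM in activated against 187 CPM in granule-gene-rich cells, and Fos had 658 against 730 CPM. In libraries 3 and 4 alone, Atf3 was 311 and 800 CPM in activated against 39.3 and 108 CPM in granule-gene-rich cells, so the order held in both. Hspa1a and Hspa1b, heat shock genes, summed to 80.2 CPM in activated and 378 CPM in granule-gene-rich cells.

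Monocyte-type cells (344) and C1q-high macrophages (1341) had 1113 and 1135 CPM of Fos over all libraries. By library, Fos had 1477 CPM in monocyte-type against 1111 CPM in C1q-high cells in library 3, and 1010 against 1148 CPM in library 4, so the order turned round. Junb had 2177 against 1374 CPM, Fosl2 313 against 116 CPM and Ier2 246 against 123 CPM, all higher in monocyte-type cells, in libraries 3 and 4 alike. Fosb, with 122 against 299 CPM, Egr1, with 80.0 against 152 CPM, and Jun, with 393 against 570 CPM, were higher in C1q-high cells in both libraries. Atf3 had 605 CPM in each. Hspa1a and Hspa1b summed to 396 CPM in monocyte-type and 948 CPM in C1q-high cells.

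In T-like cells Junb differed by state and was the leading member in each of the 3 described here. It had 1539 CPM (1508 to 1571) in the 949 regulatory cells, marked by genes such as Foxp3, 829 CPM in the 829 naive-type cells and 628 CPM in the 276 cytotoxic cells. In library 3 regulatory cells had 1341 CPM against 729 in naive-type cells, and in library 4 1673 against 1209 CPM. Cytotoxic cells had 767 CPM in library 3 and 563 CPM in library 4, so their order against naive-type cells differed between libraries. Jund followed, with 996 CPM in regulatory, 531 in naive-type and 568 in cytotoxic cells. Fos had 68.5, 112 and 54.3 CPM in the same order.

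In epithelial-like cells the Wnt-active (594), Ly6a-positive (347) and absorptive (30) states were led by Jun and the secretory state (190) by Jund. In library 2, which held 117 of the secretory cells, Fos led with 673 CPM over Jund with 643 CPM, while in library 1 Jund led with 926 CPM. In the 23 Ly6a-positive cells of library 4 Junb had 764 CPM and Jun 187 CPM. Jun had 1324 CPM in Wnt-active, 1174 in Ly6a-positive and 575 in secretory cells, and Atf3 857, 584 and 350 CPM. The secretory values were the lowest of these 3 states in libraries 1 and 2 taken singly. The 30 absorptive cells had 2875 CPM of Jun (2578 to 3198), 1776 of Fos and 956 of Fosb, the highest Fos and Fosb of any state. Their median depth was 2004 UMIs, against 13642 in Wnt-active cells.

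**Figure D3:**
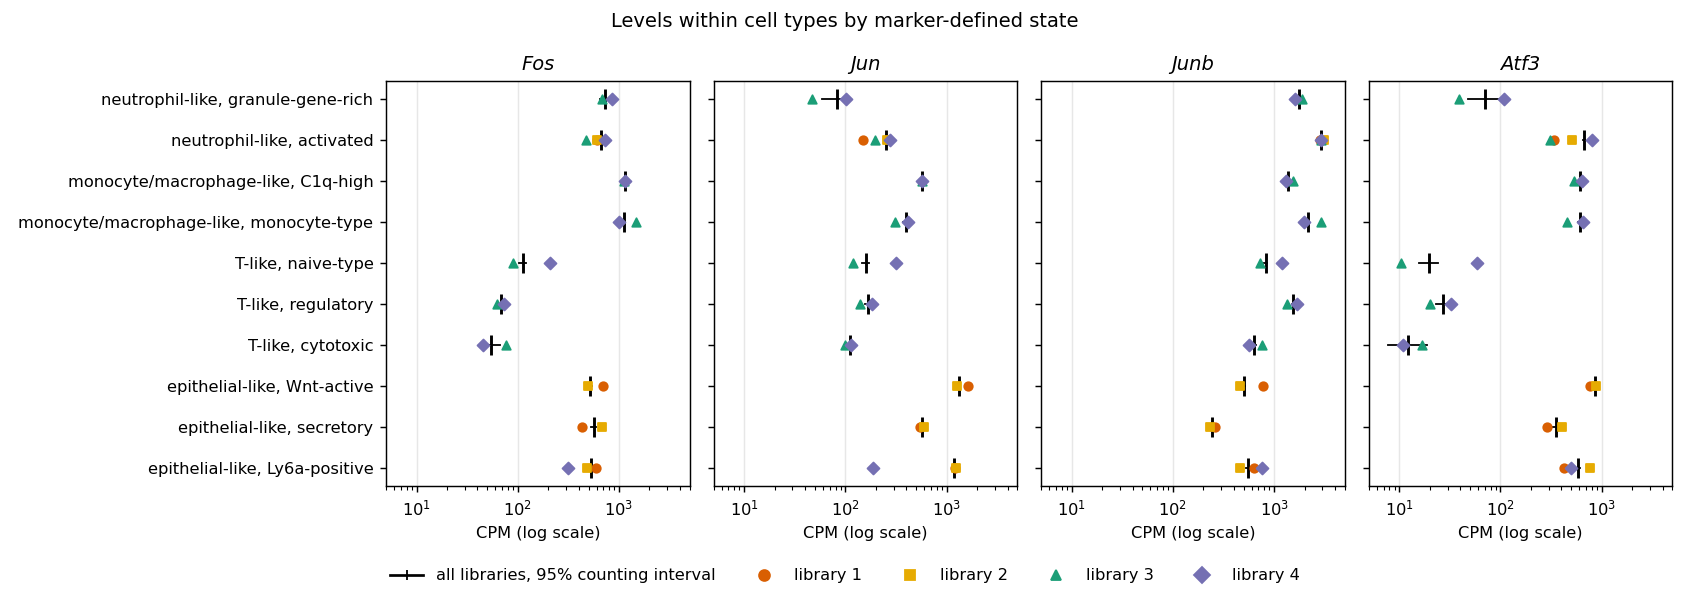
Levels (CPM, log scale) of Fos, Jun, Junb and Atf3 in 10 states of at least 50 cells. Black ticks and lines are all libraries with the 95% counting interval, and coloured points are single libraries with at least 20 cells of the state. Atf3 is at 664 CPM in activated and 70.1 CPM in granule-gene-rich neutrophil-like cells, while Fos is at 658 and 730 CPM.

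The heat shock genes Hspa1a and Hspa1b, near-identical copies summed here, are induced by stress and by warm digestion, and were used to split cells after each was thinned to 1000 UMIs. In monocyte/macrophage-like cells, 30.5% had such a UMI, and the 8 AP-1 genes summed to 8342 CPM in cells with one against 3835 CPM in cells without. Egr1 had 467 against 82.3 CPM (5.67-fold), Jun 1440 against 290.1 CPM (4.96-fold) and Fos 2144 against 896 CPM (2.39-fold). Junb, at 2131 against 1347 CPM, differed less, and Fosl2 had 156 against 185 CPM. In libraries 3 and 4 singly the Jun ratio was 5.10 and 5.00, and the Egr1 ratio 6.17 and 5.28. The split was not made within states, and Hspa1a and Hspa1b were higher in C1q-high than in monocyte-type cells (948 against 396 CPM). How far state enters these ratios was not tested.

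The same split gave different results by type. In epithelial-like cells 5.52% had a Hspa1 UMI, and the sum was 9203 against 4014 CPM, with every one of the 10 members higher in cells with one. In B-like cells (9.45%) the sum was 2504 against 1258 CPM, with Jun at 630 against 120 CPM. In T-like cells (16.7%) it was 3297 against 2389 CPM. Fos had 215 against 59.6 CPM there and Jun 454 against 127 CPM, while Junb had 1365 against 1142 CPM and Jund 935 against 776 CPM. In neutrophil-like cells 2.92% (71 cells) had a Hspa1 UMI, and the sum was 5944 CPM with and 6649 CPM without. Junb there had 2549 against 3105 CPM and Fos 535 against 780 CPM, whereas Jun had 507 against 240 CPM. Whether a cell's Hspa1 UMI came from its own response or from free RNA was not tested.

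**Figure D4:**
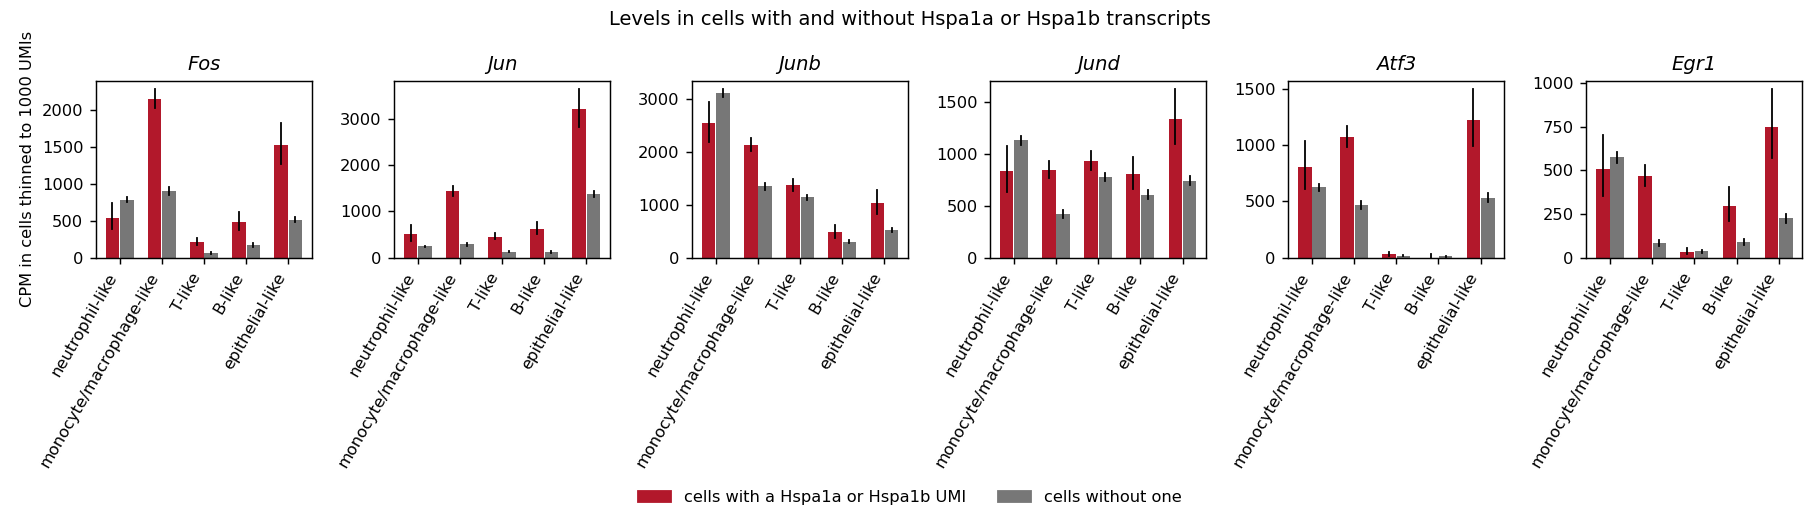
Bars give levels (CPM, in cells thinned to 1000 UMIs, axes from 0) of 6 genes in cells with (red) and without (grey) a Hspa1a or Hspa1b UMI, with 95% counting intervals as lines. Jun stands at 1440 CPM with and 290.1 CPM without one in monocyte/macrophage-like cells, while Junb in neutrophil-like cells stands at 2549 CPM with and 3105 CPM without.

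Members also occurred together in single cells to differing degrees. At 1000 UMIs per cell, at least 3 of the 10 were seen in 74.5% of basophil-like, 70.3% of neutrophil-like, 46.4% of monocyte/macrophage-like and 38.2% of epithelial-like cells, against 20.0% of T-like and 10.5% of B-like cells. None was seen in 1.40% of neutrophil-like and 42.1% of B-like cells. Pairs of members, each seen in at least 50 cells, were then compared by how often the partner was seen in cells with and without the other gene. In epithelial-like cells the partner was more frequent beside the other gene in all 36 pairs, with a median ratio of 2.52, and in monocyte/macrophage-like cells in all 36, with 1.90. In the latter, Egr1 was seen in 24.1% of cells with Jun against 5.30% of cells without, and Atf3 in 48.5% of cells with Fos against 16.4% without. B-like cells had 21 of 21 pairs (median 2.41) and T-like cells 27 of 28 (1.47). In neutrophil-like cells the ratios lay closer to 1, with 31 of 45 above it and a median of 1.10. Jun was seen there in 14.2% of cells with Fos and 14.3% of cells without. A partner seen in most cells leaves little room for a ratio above 1, and Junb was seen in 2093 of 2433 neutrophil-like cells. The pairs compared also differ between types, and how far either shifts the medians was not tested. These ratios describe cells that share a library, not replicates.

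The other immediate early genes were mostly higher in neutrophil-like cells and mostly lower in T-like, B-like and epithelial-like cells. The shares of all genes called higher and lower in these types stand with the members above: 10.9 and 51.1% in neutrophil-like, 9.42 and 15.1% in monocyte/macrophage-like, 9.73 and 17% in T-like, 9.81 and 21.2% in B-like, and 35.1 and 15.9% in epithelial-like cells. Of 20 (such as Dusp1, Zfp36 and the Nr4a genes), 13 were called higher in neutrophil-like cells and 2 lower, with a median log2 fold of 1.65, beside -1.04 for all genes. Cebpb, a myeloid bZIP factor, had 5176 against 519 CPM (3.32), Maff 194 against 20.8 (3.16) and Dusp1, a phosphatase that switches off MAP kinases, 2972 against 381 CPM (2.96). Myc had 1.70 against 37.1 CPM. In monocyte/macrophage-like cells 3 were higher (Klf4, Egr2 and Rhob, up to 1.66) and 3 lower, Egr3 most (-2.90). In T-like cells 0 were higher and 11 lower, Ier3 most at 49.3 against 939 CPM. In B-like cells 3 were higher, Myc (2.54), Egr3 (1.53) and Klf2 (1.19), and 11 lower, Cebpd most (-4.38). Epithelial-like cells had Cebpd (2.43), Rhob (2.26) and Klf4 (2.20) higher and 13 lower, Dusp2 most (1.16 against 190 CPM), with a median of -2.06 beside 0.39 for all genes.

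Of 12 heat shock and chaperone genes, 0 were called higher and 11 lower in neutrophil-like cells, with a median log2 fold of -2.12, beside -1.04 for all genes and 51.1% of all genes lower. Monocyte/macrophage-like cells had 3 higher, Hspa1a at 532 against 155 CPM (1.77), Hspa1b (1.07) and Bag3 (1.06), and 1 lower. T-like cells had 1 higher and 1 lower, and B-like cells 0 and 2. Epithelial-like cells had 4 higher, led by Hspb1 (5.75), where 35.1% of all genes were higher. Their 2 lower genes were Hspa1a and Hspa1b, the latter at 38.8 against 174 CPM (-2.14), where 15.9% of all genes were lower.

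Among 10 other bZIP genes, neutrophil-like cells had 2 higher, Jdp2 at 274 against 34.8 CPM (2.94) and Nfe2l2, the oxidative stress factor, at 983 against 181 CPM (2.44), and 2 lower. Monocyte/macrophage-like cells had 3 higher, Maf (2.62), Batf2 (1.78) and Nfe2l2 (1.52), and 0 lower. T-like cells had Maf (3.50) and Batf (2.37), the Jun partner of helper T cells, higher and 4 lower, B-like cells 0 higher and 6 lower, and epithelial-like cells 2 higher, Batf2 (1.54) and Mafg (1.20), and 4 lower. The 2 of 10 higher in epithelial-like cells and the 2 of 10 lower in neutrophil-like cells are below the shares of all genes there, 35.1 and 51.1%. Of 14 MAP kinase and SRF pathway genes, neutrophil-like cells had 0 higher, where 10.9% of all genes were, and 5 lower, where 51.1% were. The others had 1 or 2 higher and 2 or 3 lower: Dusp6 in monocyte/macrophage-like cells (2.03), Dusp4 (1.84) and Crem (1.45) in T-like, Dusp4 in B-like (1.58), and Dusp4 (1.86) and Mapk3 (1.34) in epithelial-like cells, counts to be read against the shares of all genes given above. Of 4 glucocorticoid-responsive genes, Per1 was higher in neutrophil-like cells (1.46), where 10.9% of all genes were, and Fkbp5 lower (-1.03), where 51.1% were. Tsc22d3 was higher in B-like cells (1.73), where 9.81% were, and Zbtb16 (2.43) and Fkbp5 (1.18) in T-like cells, where 9.73% were. In B-like and T-like cells 0 were lower. Epithelial-like cells had 0 higher, where 35.1% were, and 3 lower, Tsc22d3 (-2.85), Per1 and Fkbp5, where 15.9% were. Monocyte/macrophage-like cells had 0 higher and 0 lower.

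Genes most like each member were taken by Pearson's r of log2(CPM + 1) over the 13 types, among 6108 genes. The points share libraries and the basophil-like cells lie far from the rest, so r is a description without a p-value. Junb was most like Socs1 (0.956), Hilpda (0.953) and Dusp1 (0.949), and Fosl2 most like Socs1 (0.909). Fosl1 was most like Ccl6 (0.926), Egr1 like Gadd45a (0.900), Ier2 and Jund like Cks2 (0.932 and 0.880), Atf3 like Zfand5 (0.886), Fosb like Hacd4 (0.855) and Jun like Rab3d (0.845). Fos had no close match, with Gde1 highest at 0.752. Among the members, Fosl2 and Junb were most alike (0.912), then Fosl1 and Ier2 (0.848) and Fos and Fosb (0.829), while Fos and Fosl2 were unrelated (0.006).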

How the data were processed

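The deposited file is a matrix of raw UMI counts per gene and barcode, made by the authors from 10x Chromium 3′ V3 libraries. Cell Ranger 3.0.2 and build mm10 are given per the submitters' processing notes, and no source used here names the annotation release. Barcodes were kept with at least 500 UMIs, 200 genes and at most 20% mitochondrial UMIs. No doublet caller was run. A cell entered a type with at least 3 of 6 markers detected and 2 more than of any other list, which left 3097 cells (21.8%) without a type. Of the kept cells, 1902 had at least 3 markers of 2 lists, and 869 of these were given a type. Fibroblast and endothelial cells (22 and 35) fell under the minimum of 50 and were not used.

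Counts were summed per type and divided by the type's total to give CPM, with exact Poisson 95% intervals that cover counting error only. No p-value was computed, because no replicates are labelled. Values of single libraries stand alone and are not averaged. Shares of cells were taken after thinning each cell to 1000 UMIs. The fold script was tested on simulated data. Python 3.11.15, numpy 2.4.6, scipy 1.17.1 and scanpy 1.11.5 were used. The rule for named genes covered all 10 members in every type, of which the text gives those its comparisons turn on, the 3 highest and the lowest gene of each list by log2 fold in the 5 large types where they passed the threshold or stand out, and the genes most like each member. The members, markers and lists were chosen with earlier results of these data known. The promoters printed and the motif TGACATCA were chosen after the values were seen. In all, 18 alternatives were run, 3 of them chosen after seeing the data. One T-like state is not reported here.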

Additional observations from a re-analysis of the deposited data

Results flagged for a closer look

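The 948 barcodes with epithelial markers that exceeded the mitochondrial limit enter no comparison except the alternative without that limit. They still carried all 10 genes above the level that 3 counts allow (1.06 CPM). Jun had 1431 CPM, Jund 669, Fos 409, Junb 408, Ier2 314.5, Egr1 245, Atf3 239, Fosb 176, Fosl2 144 and Fosl1 16.6 CPM in them. In the kept epithelial-like cells Jun had 1168, Jund 745, Fos 520, Junb 469, Ier2 315, Egr1 175, Atf3 687, Fosb 120, Fosl2 82.2 and Fosl1 17.7 CPM. Their median depth was 2326.5 UMIs, against 7236.5 UMIs in the kept cells, and 320 and 611 of them came from libraries 1 and 2.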

How the results depend on the processing

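The 25 member log2 folds of at least 1 in size in the 5 large types were recomputed under 18 alternatives. Smaller folds and the other types were not followed in this way. Of these 450 values 0 changed direction, which the choice of large folds made likely beforehand. Under 1 in size fell 21, all of them Jun or Atf3 in neutrophil-like, Fos or Ier2 in B-like, and Junb or Atf3 in epithelial-like cells. The leading member was kept in 210 of 214 comparisons: type 1 conventional dendritic-like cells were led by Fos (29.6%) with a gate of 4 markers and a lead of 3 and by Jund (31.5%) without library 3, basophil-like cells by Junb (29.6%) after thinning, and epithelial-like cells by Junb (25.1%) without libraries 1 and 2. The stricter gate gave 8 members higher in neutrophil-like, 1 in T-like (Fosl2) and 4 in epithelial-like cells, 4 of 9 types led by Junb and 1 led by Fos. Junb led 4 of 8 types without library 4 and 4 of 10 with Leiden clusters in place of gates, both of which leave fewer types. Without library 3, T-like cells had 1 member higher (Fosl2) and epithelial-like cells 5. The epithelial-like count was 2 with a mitochondrial limit of 10%, with none, with per-cell means and after thinning, 3 with all other cells summed and without basophil-like cells, 3 and 4 without libraries 1 and 2 singly, and 0 without both. Leaving out library 1, 2 or 3 also takes the basophil-like cells out of the mean. How far this moved the counts, and why else they moved, was not tested. No paired analysis was possible because no library is tied to a sample. The clusters held a 996-cell macrophage group with a mean of 3.35 monocyte/macrophage and 1.83 neutrophil markers, while the gate asks for a lead of 2. How many of its cells the gate left out is not given here. The gate markers include C1qb, so the gate may favour C1q-high cells, which was not tested. Fosl1 had fewer than 10 UMIs in T-like and B-like cells, at 0.335 and 0.598 CPM, levels that are not read as expression here.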
